A study of Mus musculus with 6 samples.

Results

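Genes of the peroxisome were read out in sorted mouse cells at postnatal day 5 (P5) and postnatal day 3 (P3). The submitters describe the cells as upper-layer neurons of the cerebral cortex, and transcripts of glia and vessels were present as well. The genes were chosen by name, 28 in all, as peroxins, peroxisomal transporters and peroxisomal enzymes, and 27 of them have a row under that name among the 22544 rows of the authors' deposited table. They divide into 12 peroxins, 3 transporters and 12 enzymes. The peroxin Pex2 is listed under its older symbol Pxmp3, a synonym in RefSeq, and is described as Pxmp3 and left out of counts and medians unless stated. The choice was made with values of this table known, so levels and ratios are given as descriptions.

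Animals of both ages were Swiss Webster mice under standard husbandry. The P5 group and the P3 group held 3 biological replicates each. Cells carrying green fluorescent protein (GFP), described as neurons, were sorted by fluorescence before total RNA was extracted and sequenced. The labels name no genotype or agent beyond the GFP label, and what drives GFP is not given in the sources used here. Each level below is the authors' single pooled value per age in FPKM, fragments scaled to transcript length and library total, so the spread between replicates is seen only through the standard error (SE) implied by the Cuffdiff statistic. Depth is unknown.

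Peroxisomes are single-membrane organelles that shorten very long and branched fatty acids by beta-oxidation, start the synthesis of ether lipids (plasmalogens) and break down hydrogen peroxide. Their matrix proteins are made in the cytosol and imported folded, by receptors that read a short targeting signal, dock at the membrane and are then ubiquitinated and recycled. Loss of peroxins causes Zellweger spectrum disorders in people, and disturbed migration of cortical neurons is among their features.

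No peroxisomal gene passed the test for a difference between P5 and P3. Of the 25 members that Cuffdiff tested, 0 passed q = 0.05, and 0 had an unadjusted p under 0.05. By the authors' deposited table, 0.00% of 12865 tested genes passed q = 0.05 and 0.770% had an unadjusted p under 0.05, so the members' 0 of 25 sits at the background. The lowest p of any member in the authors' deposited table was 0.122, for Pex14. The other 2 members, Ehhadh and Acox2, had too few fragments for Cuffdiff to test (status NOTEST).

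The order of levels was led by the same genes at both ages, and in bulk RNA fewer cells that express a gene and less of its RNA per cell cannot be told apart. Pxmp3 (Pex2), Abcd3, Cat, Phyh, Pex19 and Hsd17b4 were the 6 highest of 28 rows at P5 and also at P3, and held 65.5% of the summed FPKM at P5 and 64.7% at P3. A gap followed them. The lowest of these 6, Hsd17b4, had 28.2 FPKM at P5 and 20.4 FPKM at P3, and the next gene down was Pex16 with 13.8 FPKM at P5 and Pex5 with 15.0 FPKM at P3. Among the 25 tested members, 23 reached 1 FPKM at P5 and 22 at P3, against 87.3% of all tested genes at P5 and 79.2% at P3. At 20 FPKM or more stood 5 members at P5 and 5 at P3, against 19.8% of all tested genes at P5 and 19.3% at P3.

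**Figure D1:**
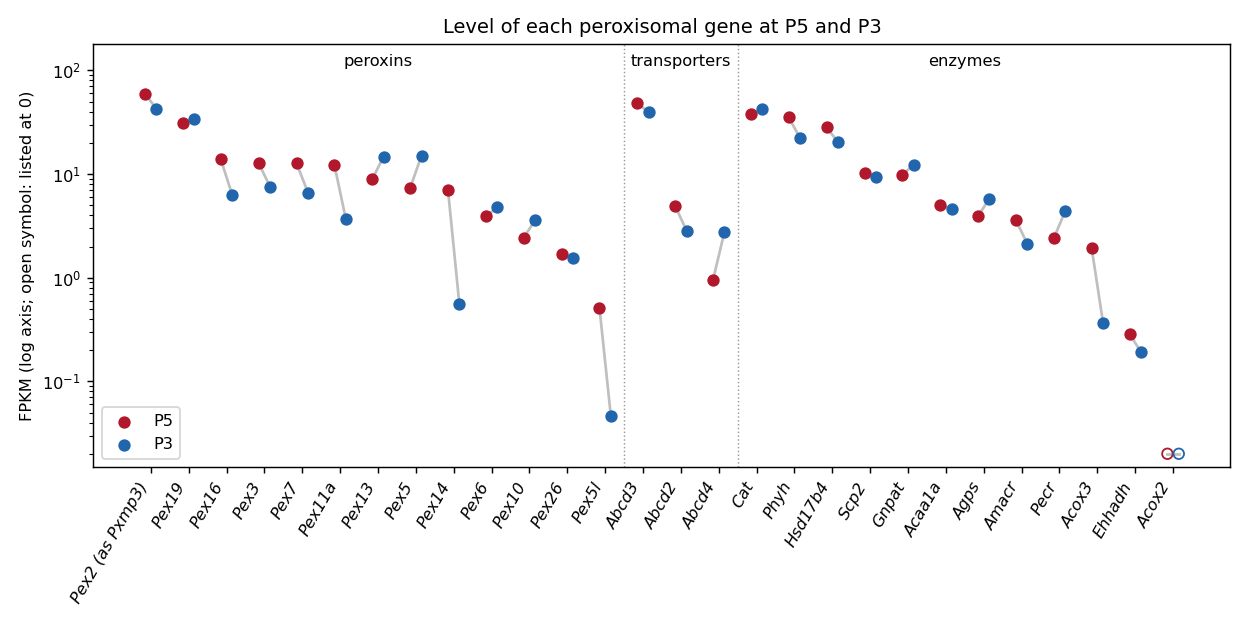
Level of each gene in FPKM on a log axis, P5 in red to the left of P3 in blue, 1 pooled value per age without error bars, in order of P5 level within each role. The 6 highest genes lie between 28.2 and 59.2 FPKM at P5 and between 20.4 and 42.6 FPKM at P3, and Acox2, drawn open, is listed at 0.

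Peroxins that insert membrane proteins were read first. Pex19, the cytosolic chaperone for peroxisomal membrane proteins (mm9 chromosome 1, 174056886 to 174066628), had 30.8 FPKM at P5 and 34.2 FPKM at P3, a log2 ratio of -0.15 (SE 1.06). Pex3, its docking partner in the membrane, had 12.7 FPKM at P5 and 7.54 FPKM at P3 (log2 ratio 0.76, SE 2.13). Pex16, which brings Pex3 to the membrane, had 13.8 FPKM at P5 and 6.31 FPKM at P3 (log2 ratio 1.13, SE 1.88). Pex19 was thus above both partners at each age, 2.42 times Pex3 and 2.23 times Pex16 at P5, and 4.54 and 5.43 times at P3. None of the ratios between ages exceeded its SE. The deposited locus of Pex3 shares bases with Adat2, which had 3.74 FPKM at P5 and 5.49 FPKM at P3, and without strand their reads cannot be separated.

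The import receptors had opposite signs. Pex5, which carries proteins with the C-terminal targeting signal (mm9 chromosome 6, 124346834 to 124365085), had 7.35 FPKM at P5 and 15.0 FPKM at P3, a log2 ratio of -1.03 (SE 1.24). Pex7, which carries proteins with the N-terminal signal (mm9 chromosome 10, 19579896 to 19627480), had 12.7 FPKM at P5 and 6.64 FPKM at P3, a log2 ratio of 0.94 (SE 1.62). Pex7 stood above Pex5 at P5, at 1.73 times its FPKM, and below it at P3, at 0.441 times. Both 95% intervals held 0, from -3.46 to 1.39 for Pex5 and from -2.25 to 4.12 for Pex7, and the difference between the genes was not tested. Pex5l is a paralog of Pex5 known in neurons mainly as an auxiliary subunit of HCN channels. It was barely detected, at 0.513 FPKM at P5 and 0.0464 FPKM at P3, and its SE of 14.96 log2 units leaves its ratio of 3.47 uninformative.

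At the docking complex the members also had opposite signs. Pex14 (mm9 chromosome 4, 148334644 to 148473921), the receptor's first contact on the membrane, had 6.98 FPKM at P5 and 0.555 FPKM at P3. This was the largest ratio of any member, 12.6-fold or 3.65 on the log2 scale (SE 2.36), with a 95% interval from -0.97 to 8.28. Pex14 was the only 1 of the 25 tested members whose ratio exceeded its SE, against 15.2% of all tested genes with FPKM above 0 at both ages. Pex13, the other docking protein, had 8.97 FPKM at P5 and 14.8 FPKM at P3 (log2 ratio -0.72, SE 1.05). Levels of the pair lay close together at P5, with Pex13 at 1.28 times Pex14, and far apart at P3, at 26.6 times. The locus of Pex13 shares bases with Pus10 (3.58 FPKM at P5 and 6.52 FPKM at P3).

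Peroxins of receptor ubiquitination and recycling spanned a wide range of levels. Pxmp3 (Pex2), a RING ubiquitin ligase (mm9 chromosome 3, 5560188 to 5576239), had the highest FPKM of all 28 rows, 59.2 at P5 and 42.6 at P3 (log2 ratio 0.48, SE 1.04). Its ligase partner Pex10 had 2.44 FPKM at P5 and 3.59 FPKM at P3 (log2 ratio -0.56, SE 1.91). Within one complex the FPKM of Pxmp3 was therefore 24.3 times that of Pex10 at P5 and 11.9 times at P3. Pex6, an ATPase that pulls the receptor out of the membrane, had 3.91 FPKM at P5 and 4.77 FPKM at P3 (log2 ratio -0.29, SE 1.25). Pex26, its membrane anchor, was at 1.68 FPKM at P5 and 1.53 FPKM at P3 (log2 ratio 0.13, SE 1.64). Both were low at either age, below the median of all tested genes, which was 5.59 FPKM at P5 and 4.90 FPKM at P3.

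Pex11a, a membrane-elongating peroxin inducible by PPAR-alpha ligands in rodent liver, had 12.2 FPKM at P5 and 3.69 FPKM at P3. Its ratio of 3.32-fold, 1.73 on the log2 scale, was the largest among members with at least 1 FPKM at both ages, and its SE was 1.95. Its p in the authors' deposited table was 0.374.

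Transporters of fatty acyl-CoA came next. Abcd3, the most abundant ABC transporter of the peroxisomal membrane (mm9 chromosome 3, 121461828 to 121518133), had 48.6 FPKM at P5 and 39.3 FPKM at P3 (log2 ratio 0.31, SE 1.01). Abcd2, a transporter of very long chain acyl-CoA, had 4.91 FPKM at P5 and 2.85 FPKM at P3 (log2 ratio 0.78, SE 1.14). Abcd4, which in spite of its family name is known for handling cobalamin in lysosomes, had 0.958 FPKM at P5 and 2.75 FPKM at P3 (log2 ratio -1.52, SE 1.81). Abcd4 had the lowest ratio of any member, with a p of 0.398 in the authors' deposited table.

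Cat and Phyh were high at both ages and Amacr was low. Cat, which breaks down hydrogen peroxide (mm9 chromosome 2, 103294061 to 103325310), had 38.1 FPKM at P5 and 42.0 FPKM at P3, a log2 ratio of -0.14 with the smallest SE of any member, 0.89. Its 95% interval ran from -1.88 to 1.60. Phyh, which hydroxylates phytanoyl-CoA in alpha-oxidation of branched fatty acids, had 35.3 FPKM at P5 and 22.2 FPKM at P3 (log2 ratio 0.67, SE 1.03). Amacr, a racemase that prepares branched acyl-CoA for beta-oxidation, was lower, at 3.58 FPKM at P5 and 2.13 FPKM at P3 (log2 ratio 0.75, SE 1.63).

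Steps of the beta-oxidation chain differed widely in level. Of the acyl-CoA oxidases that act on branched substrates, Acox3 had 1.92 FPKM at P5 and 0.368 FPKM at P3 (log2 ratio 2.38, SE 2.49), and Acox2, best known from bile acid synthesis in liver, was listed at 0 at both ages. For the next steps there are 2 bifunctional enzymes. Hsd17b4, the D-bifunctional protein, had 28.2 FPKM at P5 and 20.4 FPKM at P3 (log2 ratio 0.47, SE 0.92), while Ehhadh, the L-bifunctional protein, had 0.286 FPKM at P5 and 0.193 FPKM at P3. So the D form was well detected and the L form was near the floor of the table. The thiolases at the end of the chain lay between them. Scp2, whose locus also encodes a sterol carrier protein, had 10.3 FPKM at P5 and 9.40 FPKM at P3 (log2 ratio 0.13, SE 1.10). Acaa1a had 5.02 FPKM at P5 and 4.60 FPKM at P3 (log2 ratio 0.13, SE 1.48). Its near-identical copy Acaa1b had 0.137 FPKM at P5 and 0.0157 FPKM at P3, and reads could be split between them. Pecr, a reductase of trans-enoyl-CoA, had 2.41 FPKM at P5 and 4.38 FPKM at P3 (log2 ratio -0.87, SE 1.86).

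Ether lipid synthesis begins in the peroxisome with a pair of enzymes that act in turn. Gnpat, which acylates dihydroxyacetone phosphate, had 9.86 FPKM at P5 and 12.3 FPKM at P3 (log2 ratio -0.32, SE 0.99). Agps, which then exchanges the acyl group for an alkyl group, had 3.96 FPKM at P5 and 5.77 FPKM at P3 (log2 ratio -0.54, SE 0.96). The proportion between these partners was similar at both ages, with Gnpat at 2.49 times Agps at P5 and 2.14 times at P3.

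Peroxins were set against enzymes and transporters by level. The median was 8.16 FPKM for 12 peroxins and 4.91 FPKM for 15 enzymes and transporters at P5, a difference of 0.73 on the log2 scale. At P3 the medians were 5.54 FPKM for peroxins and 4.60 FPKM for enzymes and transporters, a difference of 0.27. These ranges overlap almost completely, from 0.513 to 30.8 FPKM for peroxins and from 0 to 48.6 FPKM for enzymes and transporters at P5, and from 0.0464 to 34.2 FPKM for peroxins and from 0 to 42.0 FPKM for enzymes and transporters at P3. The difference hung on the summary used: with means of log2 FPKM over rows above 0 it was 0.04 at P5 and -0.51 at P3. Over tested rows alone the difference of medians at P3 was -0.06. With Pxmp3 among the peroxins the difference of medians was larger, 0.87 at P5 and 0.46 at P3. The peroxin range then reached 59.2 FPKM at P5 and 42.6 FPKM at P3.

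**Figure D2:**
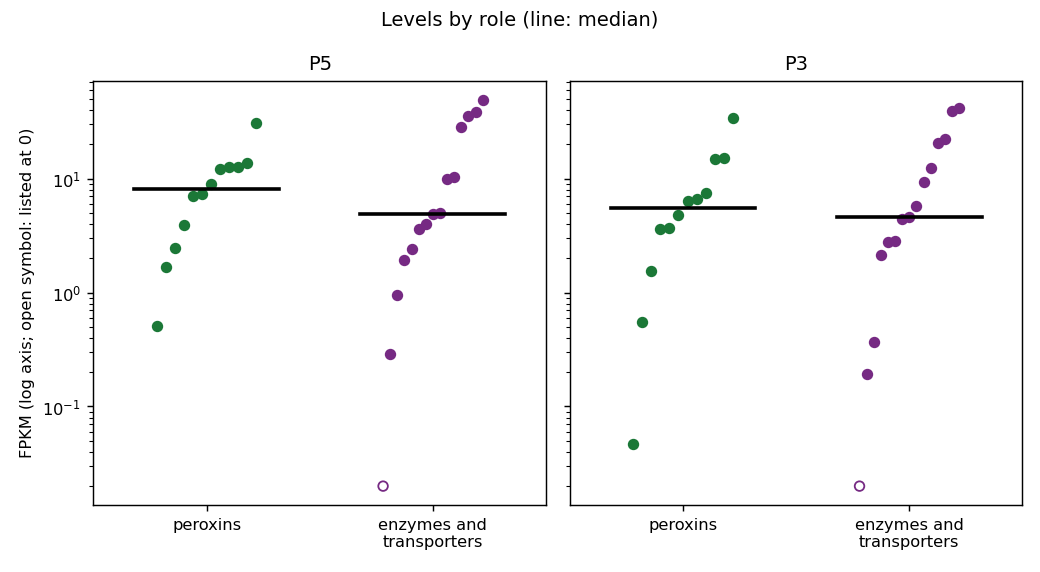
FPKM of 12 peroxins (green) and 15 enzymes and transporters (purple) on a log axis, at P5 on the left and P3 on the right. Points are genes and lines are medians (peroxins 8.16 and enzymes and transporters 4.91 FPKM at P5, peroxins 5.54 and enzymes and transporters 4.60 FPKM at P3), and the 2 sets overlap at each age.

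Ratios between ages were close to those of the table as a whole. Of the 25 tested members, 15 were higher at P5 and 10 were lower, against 55.6% higher and 44.4% lower among the 12313 tested genes with FPKM above 0 at both ages. The median log2 ratio was 0.13 for the members and 0.13 for those 12313 genes. Peroxins had a median of 0.44 (7 higher and 5 lower), and enzymes and transporters had one of 0.13 (8 higher and 5 lower). The peroxin median did not keep its sign: over the 10 peroxins with at least 1 FPKM at both ages, which leaves out Pex14 and Pex5l, it was -0.01, with 5 of 10 higher, against 51.1% of the genes tested at that level. A log2 ratio of 1 or more was found in 5 members (Pex14, Pex5l, Acox3, Pex11a and Pex16), against 23.9% of the tested genes, and one of -1 or less in 2 (Abcd4 and Pex5), against 10.0%. With 1 FPKM added to both values the ratios of genes low at either age were smaller, at 2.36 for Pex14, 0.53 for Pex5l, 1.09 for Acox3 and -0.94 for Abcd4. Since Cuffdiff tests a gene only where fragments suffice, these counts describe the tested members and not all 28 genes.

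**Figure D3:**
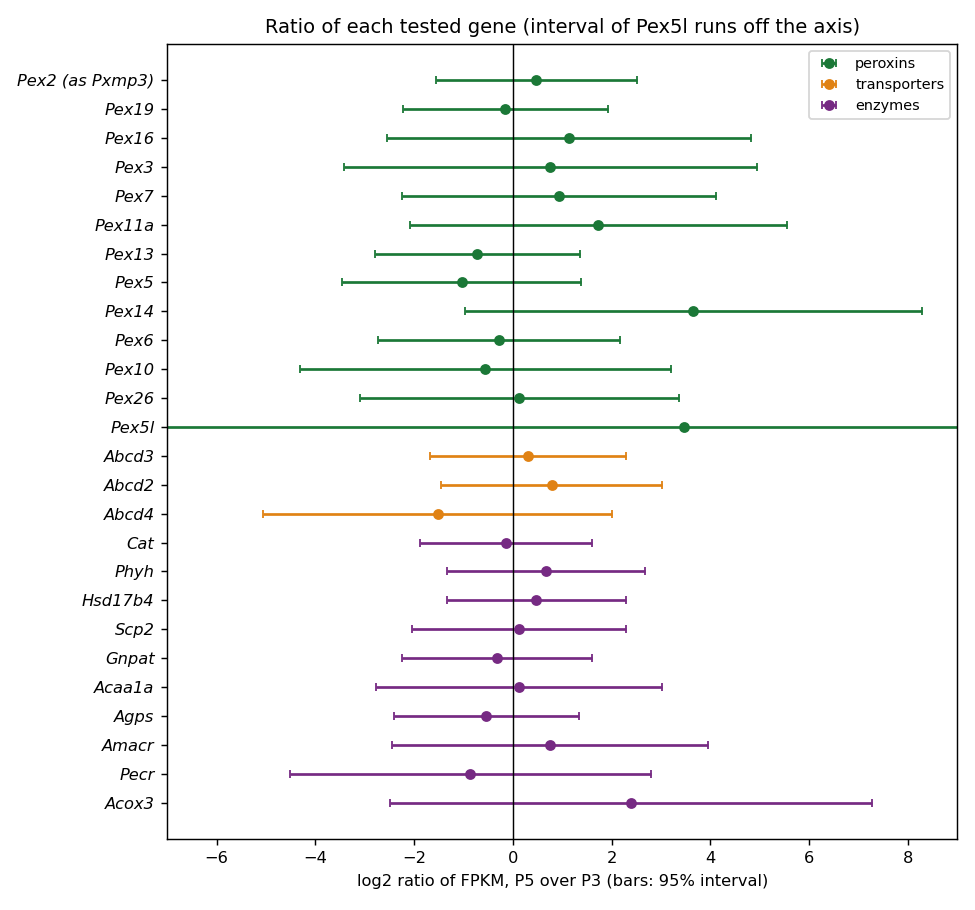
Log2 ratio of FPKM, P5 over P3, of the 25 tested members and Pxmp3, with 95% intervals of 1.96 SE, coloured by role. Every interval holds 0, including that of Pex14 at 3.65, and the interval of Pex5l runs past both ends of the axis.

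Errors were wide beside these ratios. The SE of the 25 members ran from 0.89 to 14.96 log2 units with a median of 1.48, against a median of 1.38 over all tested genes. The statistic itself was less spread than a standard normal, with a robust SD of 0.66 over those genes. All 25 intervals held 0. For Cat, the member with the smallest SE, the interval still allowed a fall of 1.88 or a rise of 1.60 log2 units.

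Other genes of the pathway, taken from a list of 66 further symbols, were placed beside the members. Of these, 64 are in the table, and 46 were tested with FPKM above 0 at both ages. By the deposited test of the authors, 0 of them passed q = 0.05 and 0 had an unadjusted p under 0.05. FPKM was higher at P5 in 34 and lower in 12, with a median log2 ratio of 0.39, against 55.6% higher and a median of 0.13 over all tested genes with FPKM above 0 at both ages.

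Several of the most abundant genes of that list are also known outside peroxisomes. Idh1, an NADP-dependent dehydrogenase of cytosol and peroxisome, had 366 FPKM at P5 and 363 FPKM at P3. Prdx5, a peroxiredoxin of mitochondria, peroxisomes and cytosol, had 208 FPKM at P5 and 130 FPKM at P3. The fission genes Fis1 and Mff, shared with mitochondria, had 146 and 85.5 FPKM at P5 and 136 and 68.0 FPKM at P3. Slc25a17, the carrier for cofactors in the peroxisomal membrane, had 81.0 FPKM at P5 and 76.2 FPKM at P3, above every one of the 28 genes. Acsl4, an acyl-CoA synthetase with a preference for arachidonate, had 78.6 FPKM at P5 and 135 FPKM at P3 (log2 ratio -0.78, SE 1.33).

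Among genes of the list with at least 5 FPKM at either age, Pxmp4 and Mpv17 were among the 3 with the largest positive log2 ratios. Pxmp4 had 13.9 FPKM at P5 and 7.01 FPKM at P3 (log2 ratio 0.99, SE 1.33). Mpv17 had 45.5 FPKM at P5 and 24.7 FPKM at P3 (log2 ratio 0.88, SE 0.95). Neither ratio exceeded its SE. The largest negative ratios belonged to Gstk1, a glutathione transferase, with 3.34 FPKM at P5 and 12.8 FPKM at P3 (log2 ratio -1.94, SE 1.76), and to Dhrs4, a carbonyl reductase, with 12.6 FPKM at P5 and 30.1 FPKM at P3 (log2 ratio -1.26, SE 1.76). Nuclear receptors of the PPAR family, which drive peroxisomal genes in rodent liver, were near the floor of the table. Ppara had 0.462 FPKM at P5 and 0.108 FPKM at P3, Ppard had 0.118 FPKM at P5 and 0.176 FPKM at P3, and Pparg was listed at 0 at P5 and had 0.0367 FPKM at P3.

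Markers of cell types were checked in the same libraries. Of 16 neuronal symbols looked up, 15 are in the table and none is at 0. Stmn2, a tubulin regulator of growing neurons, had the highest mean over both ages, with 758 FPKM at P5 and 332 FPKM at P3, and Mef2c followed with 226 FPKM at P5 and 156 FPKM at P3. Cux2, a defining gene of upper layers, was low, with 1.99 FPKM at P5 and 1.87 FPKM at P3. Transcripts of glia and vessels were present as well. Summed FPKM of 12 astrocyte markers was 3195 at P5 and 2649 at P3, with Slc1a3 (758 at P5 and 1088 at P3) and Aldoc (773 at P5 and 767 at P3) in the lead. The 11 oligodendrocyte lineage markers summed to 309 FPKM at P5 and 140 FPKM at P3, with Olig1 at 50.9 at P5 and 48.1 at P3, and with Mag and Mog at 0 at P3. The 11 microglia markers summed to 160 FPKM at P5 and 20.2 FPKM at P3, led by C1qb (27.5 at P5 and 9.69 at P3) and Fcer1g (30.4 at P5 and 0.488 at P3). The 10 endothelial and mural markers summed to 950 FPKM at P5 and 916 FPKM at P3, led by Rgs5 (905 at P5 and 911 at P3) and Vtn (25.1 at P5 and 1.40 at P3), with Tek at 0 at P3. Rgs5 alone made up nearly all of both vessel sums. The median of the 10 was 1.76 FPKM at P5 and 0.289 FPKM at P3. All of these marker sums were higher at P5. The sum of the 15 neuronal markers was higher at P5 as well, at 1651 FPKM against 1165 FPKM at P3. Among markers tested with FPKM above 0 at both ages, 10 of 12 for astrocytes, 9 of 9 for oligodendrocytes, 11 of 11 for microglia and 7 of 9 for vessels had higher FPKM at P5, and 9 of 15 for neurons did, against 55.6% of all such genes. The part of these cells in the peroxisomal levels was not tested.

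Promoter windows were available in RefSeq (GRCm38.p6) for 21 of the 27 genes, 26 windows in all. The 250 bases before 5 starts are shown because they belong to genes of very different level or of opposite sign. They are written from 5′ to 3′ in the direction of transcription (sense strand), with each CpG in capitals. Abcd3 (chr3:121815303-121815552, minus strand) is CpG-rich and among the highest genes, Phyh (chr2:4918746-4918995, plus strand) is high with few CpGs, and Ehhadh (chr16:21787835-21788084, minus strand) is near the floor. Pex16 (chr2:92374426-92374675, plus strand) and Pex5 (chr6:124415068-124415317, minus strand) had ratios of opposite sign.
Abcd3: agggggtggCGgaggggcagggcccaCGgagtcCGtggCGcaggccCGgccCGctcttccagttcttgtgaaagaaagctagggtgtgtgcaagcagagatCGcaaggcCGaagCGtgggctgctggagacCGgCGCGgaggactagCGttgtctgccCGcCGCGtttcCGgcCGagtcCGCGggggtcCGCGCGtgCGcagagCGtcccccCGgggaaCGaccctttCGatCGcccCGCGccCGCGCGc
Phyh: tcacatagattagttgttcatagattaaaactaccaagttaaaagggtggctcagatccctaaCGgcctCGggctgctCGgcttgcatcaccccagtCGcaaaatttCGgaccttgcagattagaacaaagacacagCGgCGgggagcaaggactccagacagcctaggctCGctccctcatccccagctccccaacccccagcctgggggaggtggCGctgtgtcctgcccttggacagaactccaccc
Ehhadh: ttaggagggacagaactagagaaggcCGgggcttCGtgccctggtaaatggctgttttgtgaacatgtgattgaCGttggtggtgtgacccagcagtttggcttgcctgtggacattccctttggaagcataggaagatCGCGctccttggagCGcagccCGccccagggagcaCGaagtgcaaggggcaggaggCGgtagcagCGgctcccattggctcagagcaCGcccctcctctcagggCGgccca
Pex16: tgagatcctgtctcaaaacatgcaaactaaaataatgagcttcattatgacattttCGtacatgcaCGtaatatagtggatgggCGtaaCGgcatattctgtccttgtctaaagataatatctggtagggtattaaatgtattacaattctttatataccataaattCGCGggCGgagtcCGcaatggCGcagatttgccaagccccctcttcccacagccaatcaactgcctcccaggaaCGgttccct
Pex5: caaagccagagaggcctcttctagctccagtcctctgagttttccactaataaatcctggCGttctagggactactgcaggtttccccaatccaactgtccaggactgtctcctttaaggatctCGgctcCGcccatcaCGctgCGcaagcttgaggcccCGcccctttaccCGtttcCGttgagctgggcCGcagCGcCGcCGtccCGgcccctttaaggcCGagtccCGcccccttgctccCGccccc

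These windows hold 34 CpGs in Abcd3, 9 in Phyh, 12 in Ehhadh, 10 in Pex16 and 16 in Pex5. One start is shown for each gene, and the windows of other starts hold 35 CpGs in Abcd3, 11 in Pex16, and 34 and 7 in Pex5. Over all windows the observed-over-expected CpG ratio, which corrects for base composition, had a median of 0.73 in the 26 windows of the peroxisomal genes and of 0.71 in the 11705 windows of tested genes. By role the median was 0.73 in 13 peroxin windows and 0.59 in 13 windows of enzymes and transporters. Acox2, listed at 0, had the lowest ratios of all, 0.06 and 0.14 in its 2 windows. By the GENCODE M21 annotation both Acox2 windows lie wholly within Acox2 exons, 250 of 250 bases. Several other windows overlap exons too, among them the Abcd3 window with 35 CpGs, by 151 bases. The 5 windows printed above overlap none. Cat and Phyh, at 38.1 and 35.3 FPKM at P5, had ratios of 0.38 and 0.46, and Abcd3, at 48.6 FPKM, had up to 1.06. Whether level goes with CpG content was not tested.

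**Figure D4:**
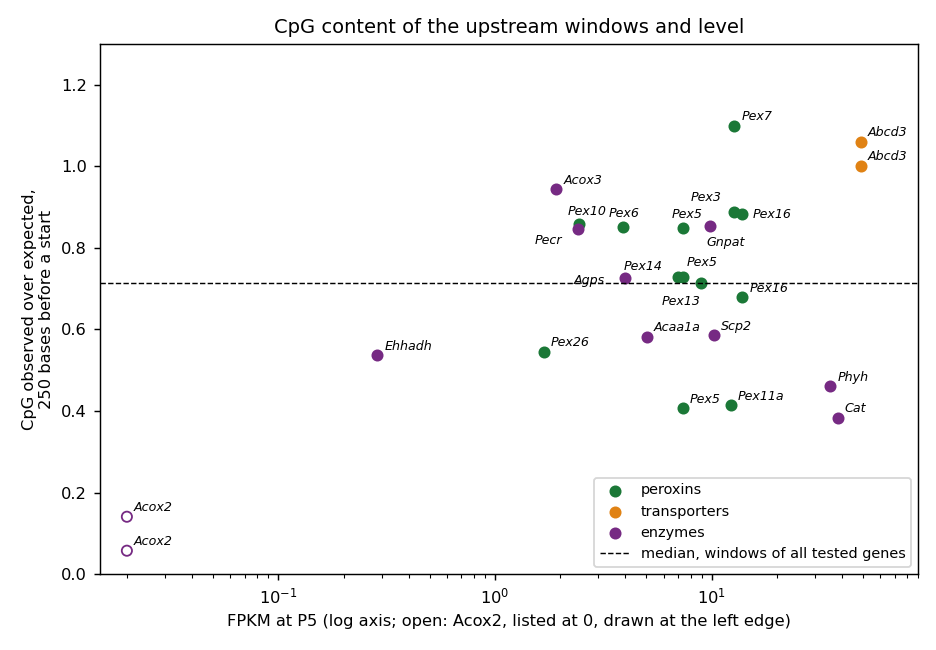
CpG observed over expected in the 250 bases before each start against FPKM at P5 on a log axis, 1 point per window, coloured by role, with Acox2 (listed at 0) drawn open at the left edge. Abcd3, at up to 1.06, and Cat at 0.38 have similar FPKM, and the dashed line is the median of 0.71 over windows of all tested genes.

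Short motifs were searched on both strands of the same 250 bases. GGGCGG, the GC box, was in 15 of 26 windows (57.7%), against 57.1% of the windows of tested genes. CCAAT was in 10 (38.5%), against 35.0%, and TATAAA in 3 (11.5%), against 6.46%, in windows of Pex14, Pex16 and Pex26. AGGTCA, the nuclear receptor motif, was in 2 windows (7.69%), those of Cat and Scp2, against 10.3%. Its direct repeat, AGGTCA followed by any 1 base and AGGTCA again, is the arrangement that PPAR and RXR bind, and was in 0 windows, against 0.0256% of the windows of tested genes. AGGTCA also counts where it lies within the repeat, and these matches are letters in a window and not binding sites.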

How the data were processed

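RNA sequencing of 6 samples, 3 at P5 and 3 at P3, was deposited as 1 table. TopHat, Cuffdiff 2.02 and build mm9 are named in the submitters' processing notes. The authors' FPKM values are pooled over replicates into 1 value per age, per the file headers, so read depth and spread per replicate are unknown, and 0 columns of per-sample values were left aside. The deposited table also holds a log2 ratio and a test statistic, handled as scores because they carry a placeholder where 1 age is at 0, and a p-value and q-value. The sources used here give neither annotation nor strandedness.

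The comparison is the authors' Cuffdiff test (22544 rows, 12865 tested, q = 0.05). Ratios match the log2 of the FPKM ratio to within 1.51e-05. The p-value matched the normal tail of the statistic to within 2.8e-06, so the SE was taken as the ratio over the statistic and 95% intervals as 1.96 SE. On data simulated from that same relation the step returned the SE put in. That outcome was fixed by construction and is no check of the deposited statistic. Starts of loci were read as counted from 0: plus 1 they equalled RefSeq starts in 197 rows, unchanged in 11. Members, lists and alternatives were chosen with earlier results of these data known. All members were named, and of the other pathway genes the 6 with the highest mean FPKM and the 3 with the largest ratio in each direction among those with at least 5 FPKM at either age; of each marker list the 2 highest. Some genes that this rule names are not reported here. Acaa1b, Pex11c, PPAR genes, Cux2 and neighbours at shared loci were named after their values were seen. Analyses used Python 3.11.15, pandas 2.3.3 and scipy 1.17.1.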

Additional observations from a re-analysis of the deposited data

How the results depend on the processing

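Counts of genes and of members that passed the test were 0 under q at 0.01, Bonferroni adjustment, a minimum of 1 FPKM at either age and a minimum log2 ratio of 1. Since 0 passed q = 0.05, only the minimum of 1 FPKM, with q recomputed, could have given another count. The other settings are stricter and could only give 0. A change of a median was counted once it passed 0.2 log2 units, since no replicate spread is at hand. The peroxin median of 0.44 was 0.13 with a minimum of 1 FPKM at either age, without loci shared with another row, and without Pex5l and Abcd4. It was 0.75 as a mean and -0.0096 with at least 1 FPKM at both ages. As means, the ratios were 0.45 for the members (0.13 as a median) and 0.68 for the other pathway genes (0.39 as a median). Centred on all tested genes, the median of enzymes and transporters was -0.0023 and the ratios of Acaa1a and Scp2 were -0.0023 and -0.0045. For peroxins minus enzymes and transporters, the mean gave 0.041 at P5 (0.73 as a median) and -0.51 at P3 (0.27 as a median). At P3 it was 0.054 without shared loci and -0.057 over tested rows. The cause was not tested. The minimum at both ages and the inclusion of Pxmp3 were chosen after seeing the data. With Pxmp3, the members' median was 0.22 and the peroxins' 0.48. The level of peroxins minus enzymes and transporters was then 0.87 at P5 and 0.46 at P3. Without Pex5l and Abcd4 it was 0.85 at P5 and 0.28 at P3. Of 67 alternatives on these summaries and counts 55 kept sign and size within these limits, or for counts within a separate fold limit. The 67 include the counts that could only be 0. For single members 73 of 75 kept their sign and moved by less than 1 SE, which is wide: with a pseudocount of 1 FPKM the log2 ratio was 0.53 for Pex5l (3.47 without), 1.09 for Acox3 (2.38), 2.36 for Pex14 (3.65), -0.94 for Abcd4 (-1.52) and 0.081 for Pex26 (0.13), and with 0.1 FPKM it was 2.07 for Pex5l.

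No paired analysis was possible because the table holds 1 pooled value per age, and leaving out a replicate was not run for the same reason.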

Other observations

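Several pathway genes had large ratios at FPKM too low for the naming rule. Nudt7, a peroxisomal CoA diphosphatase, had 2.62 FPKM at P5 and 0.0282 FPKM at P3, and Pex11c had 2.83 FPKM at P5 and 0.0623 FPKM at P3. Pipox, which oxidises sarcosine and pipecolate, had 2.41 FPKM at P5 and was listed at 0 at P3. Far2, which supplies fatty alcohol for ether lipids, had 4.90 FPKM at P5 and 0.709 FPKM at P3, a log2 ratio of 2.79 with an SE of 17.15, and its locus shares bases with 4 other rows. Bbox1, a hydroxylase of carnitine synthesis, had 0.121 FPKM at P5 and 1.91 FPKM at P3. None of them passed Cuffdiff's test in the authors' deposited table. These genes were chosen after their values were seen.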
